A study of Mus musculus with 11 samples.

Results

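Hormone receptors of the mammary gland were followed through 7 genes, Prlr, Esr1, Pgr, Ghr, Nr3c1, Insr and Thra, in cells of the periostin lineage. The genes were chosen by name, and each has 1 probe among the 19965 probes for endogenous transcripts in the deposited table. All 7 probes passed the filter on low counts and were tested, in all 11 regions. Of the 7, Ghr stood clearly above the negative-control probes in most regions, Nr3c1 and Insr did so in some, Prlr and Thra in few, and Esr1 and Pgr in none.

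The study placed barcoded probes on sections of mammary gland from 3 mice of a periostin lineage-tracing line, described as naive. Areas were chosen under the microscope by stains for smooth muscle actin (SMA), which marks ducts and blood vessels, and podoplanin (Pdpn), which marks lymphatic vessels. Within each area, cells positive for ZsGreen, the lineage reporter, were segmented, and their probe barcodes were released by ultraviolet light and counted (GeoMx digital spatial profiling). The question was how such cells beside lymphatic vessels differ from those beside ducts and blood vessels.

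There were 6 Pdpn-adjacent regions (2, 3, 4, 7, 8 and 11) and 5 SMA-adjacent regions (1, 5, 6, 9 and 10), all from paraformaldehyde-fixed, frozen blocks. The labels name no treatment for either group. The strain, the age of the mice, the stage of their cycle and the driver of the reporter are not given in the sources used here. A lineage reporter also marks cells that made periostin earlier and no longer do so. Which mouse gave which region is not labelled, and 5 or 6 regions per group came from at most 3 mice. Several regions must come from 1 mouse, so a p computed over regions may be smaller than it should be.

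Total counts ran from 760761 to 3086323 in SMA-adjacent and from 22757 to 2271664 in Pdpn-adjacent regions. Pdpn-adjacent regions 2, 3 and 11 held 22757, 81760 and 30316 counts, and 12 of the 21 receptor counts in them stood at 1, the lowest value in the table. A count of 1 has a 95% exact Poisson interval of 0.0253 to 5.57, which covers counting error only. Acta2, the gene of smooth muscle actin, stood at 12.9 to 87.5 times background in SMA-adjacent and at 0.952 to 10.0 times in Pdpn-adjacent regions. Pdpn transcript was 0.375 to 1.79 times background beside Pdpn-stained vessels and 1.56 to 1.95 times beside SMA structures. Postn, the periostin gene, was 0.889 to 4.09 and 1.84 to 5.13 times background in the same order. Of 9 lymphatic endothelial markers, 1 was above the floor in region 9, 1 in region 11, and none in the other 9 regions. Level over background is a count divided by the geometric mean of the 210 negative-control probes of the same region. The floor is their mean plus 2 SDs on the log2 scale.

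Prolactin and growth hormone act through cytokine receptors at the cell surface that signal through the kinase Jak2 and the factor Stat5. Oestrogen, progesterone, glucocorticoid and thyroid hormone act through nuclear receptors, which bind DNA and regulate genes directly, and insulin acts through a receptor tyrosine kinase. In the mammary gland, oestrogen and progesterone receptors are known from a subset of luminal epithelial cells and, for the oestrogen receptor, from stroma, and the prolactin receptor is known for its role in alveolar development and milk production. Growth hormone, insulin, glucocorticoid and thyroid hormone receptors are more widespread and are known in fat and stroma as well as in epithelium.

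**Figure D1:**
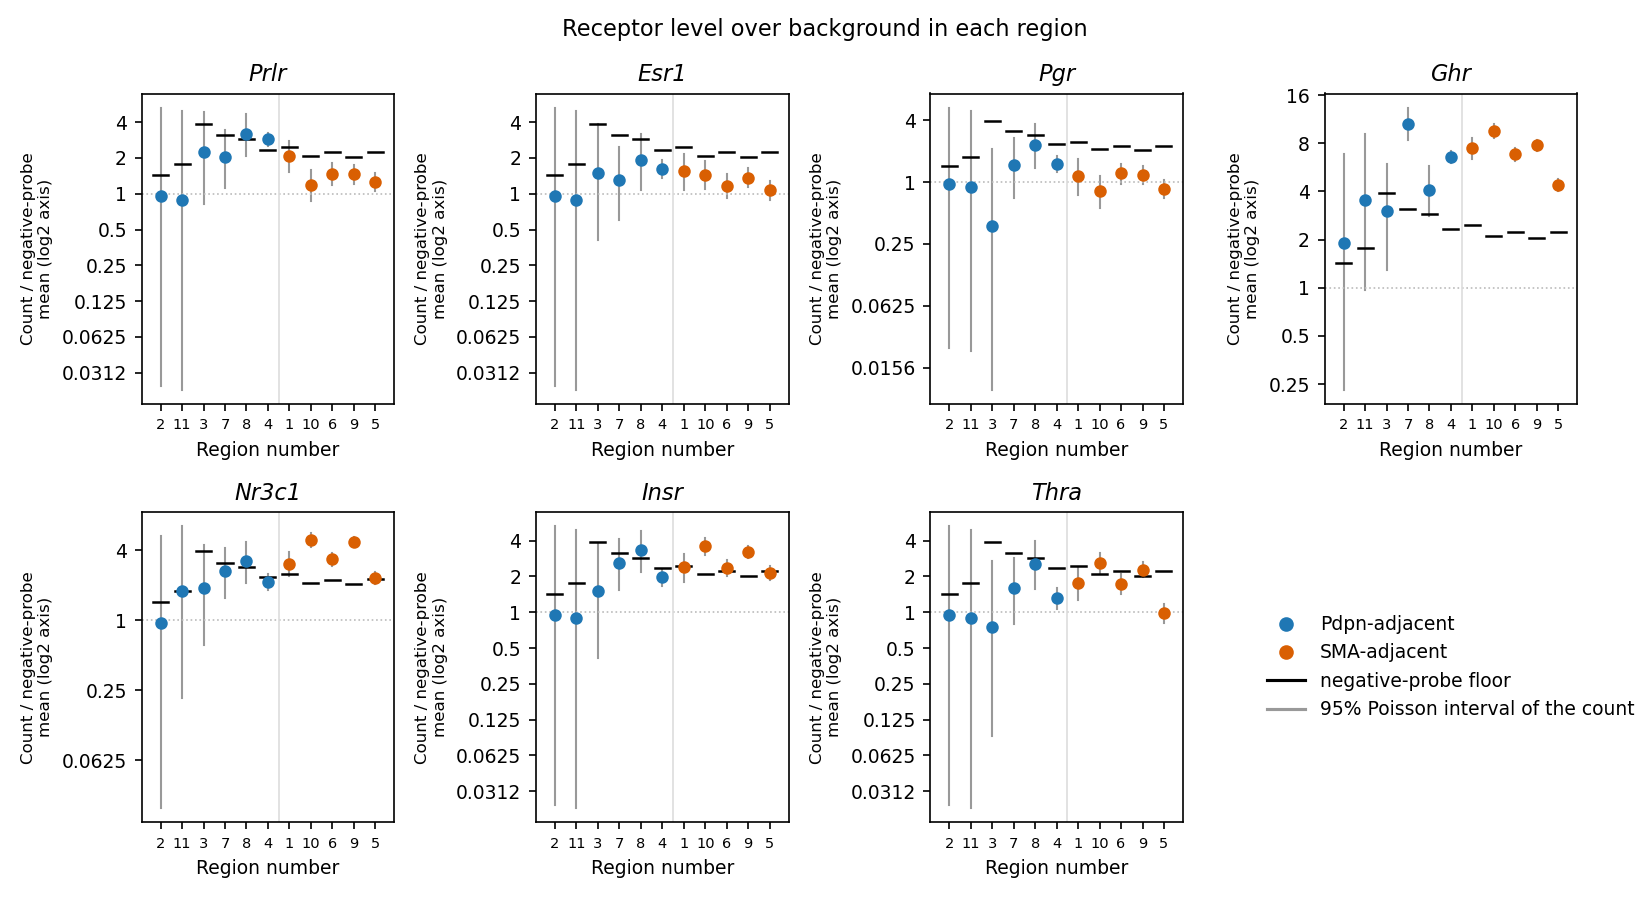
Level of each receptor over background (count divided by the geometric mean of the negative probes, log2 axis) in each region, with the 95% Poisson interval of the count and the negative-probe floor of the region as a black bar. Ghr lies above the bar in 10 of 11 regions, and Esr1 and Pgr lie above it in 0.

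Prlr encodes the prolactin receptor. In Pdpn-adjacent regions 2, 3, 4, 7, 8 and 11 its level was 0.952, 2.25, 2.87, 2.04, 3.19 and 0.889 times background, from counts of 1, 6, 220, 14, 25 and 1. SMA-adjacent regions 1, 5, 6, 9 and 10 had 2.08, 1.26, 1.48, 1.46 and 1.19 times background, from counts of 47, 140, 95, 126 and 47. Only regions 4 and 8, both Pdpn-adjacent, lay above the floor, and the groups overlapped, with the shallow regions 2 and 11 lowest of all. As a share of library size scaled by TMM (CPM), Prlr averaged 64.8 ± 24.4 CPM (SD, n = 6) in Pdpn-adjacent and 46.1 ± 9.97 CPM (SD, n = 5) in SMA-adjacent regions. In 4 of 6 Pdpn-adjacent regions the CPM was above every SMA-adjacent one, and region 3 among these rests on 6 counts.

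The difference in Prlr did not pass the threshold, an adjusted p under 0.05 over all probes. Its log2 ratio (log2 fold change of Pdpn-adjacent over SMA-adjacent regions) was 0.88 (SE 0.17, edgeR, adjusted p = 0.0620), rank 6 by p among 19935 probes tested. The exact permutation test, which weights every region equally, gave a p of 0.197 (adjusted p = 0.767 over all probes). In the 8 regions of at least 100000 counts, Prlr was 65.2 to 94.7 CPM in the 3 Pdpn-adjacent and 34.7 to 62.0 CPM in the 5 SMA-adjacent regions, without overlap. The exact permutation p there was 0.0179, the smallest that 56 ways to choose the groups allow, with an adjusted p of 0.591 over all probes. Such a separation with Pdpn-adjacent higher was found for 2.39% of all probes tested, and with Pdpn-adjacent lower for 2.02%. Some regions share a mouse, so these p-values can be too small.

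The call for Prlr moved with single regions. It passed without SMA-adjacent region 1 (edgeR adjusted p = 0.0491), SMA-adjacent region 5 (0.0246) or Pdpn-adjacent region 7 (0.0386). Without regions 4 and 8 together, the log2 ratio was 0.47 (SE 0.31, edgeR, adjusted p = 0.996), and the remaining 4 Pdpn-adjacent regions averaged 52.8 ± 19.9 CPM (SD, n = 4). Without region 4 alone it was 0.66 (adjusted p = 0.648). Hormone-sensing luminal markers moved with Prlr over the 8 deeper regions (Pearson r = 0.91, as a description), and secretory luminal markers less so (0.58). The summed level of 13 measured hormone-sensing luminal markers was 13.3 to 37.2 times background in Pdpn-adjacent and 17.3 to 20.7 in SMA-adjacent regions. Genes that all stand at background sum to the number of genes, here 13. The Pdpn-adjacent low end of 13.3 is the value of the shallow region 11. Regions 4 and 8 held the 2 highest mean levels of these markers, 2.39 and 2.86 times background, and 1.03 to 1.60 was found in the other 9. In each of those 2 regions 5 of 13 markers were above the floor. In Pdpn-adjacent regions 3 and 7, where Prlr was 2.25 and 2.04 times background, 0 of the 13 were. The part of luminal cells in the Prlr values was not tested.

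**Figure D2:**
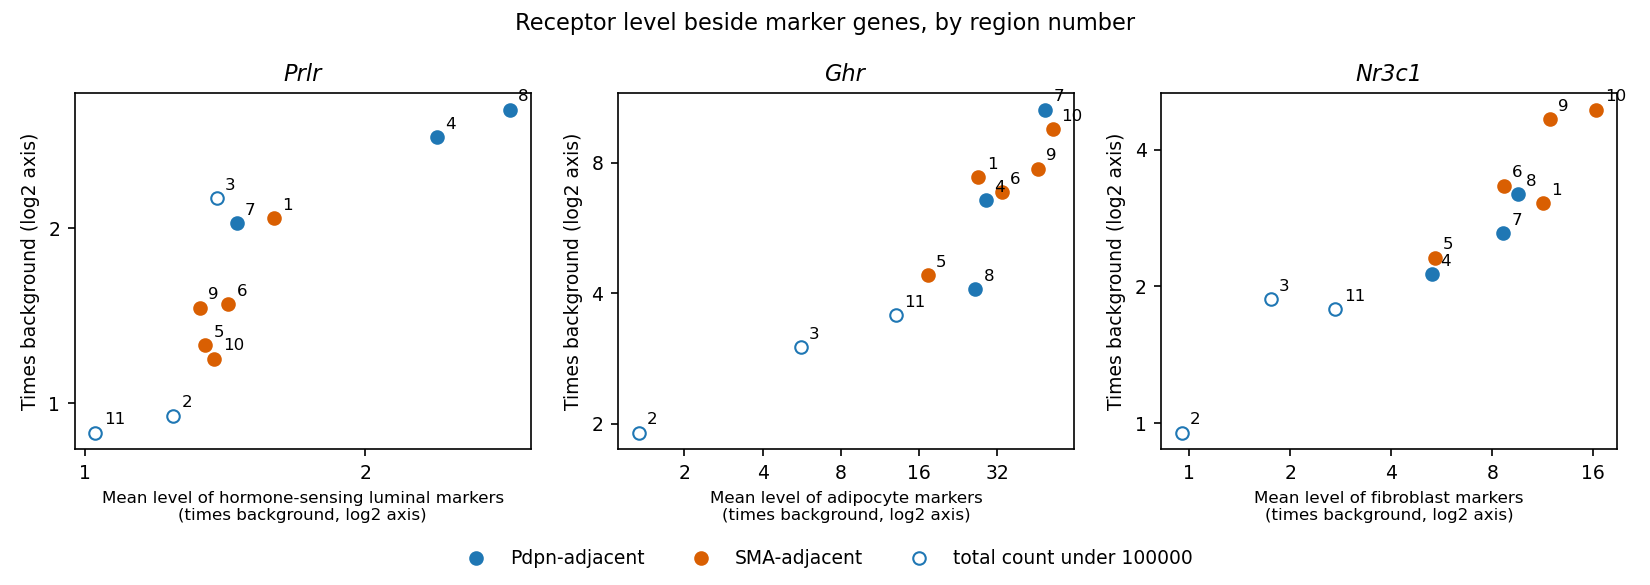
Level of Prlr, Ghr and Nr3c1 over background against the mean level of a marker list (both log2 axes), 1 point per region with its number. Prlr and the hormone-sensing luminal markers are both highest in regions 4 and 8. Ghr and the adipocyte markers are both lowest in region 2 at 1.90 and 1.33 times background.

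For Prlr 3 start sites with a window were matched in RefSeq on GRCm38.p6, and for Pgr 1. The Pgr start used, at 8899833, lies inside the RefSeq gene span, which begins at 8898900. The outer end of Pgr therefore has no window here. The windows, from 250 bases before to 50 after each start, are shown because these are the 2 receptors whose deeper regions did not overlap between the groups. Among all probes tested, 2.39% separated in this way with Pdpn-adjacent higher. Capitals mark matches on either strand to AGAACA, the core of glucocorticoid and progesterone response elements, to GGTCA, the core of oestrogen response elements, or to TTCNNNGAA, the spacing that Stat factors bind.
Prlr start 1, chr15:10176988-10177287, plus strand: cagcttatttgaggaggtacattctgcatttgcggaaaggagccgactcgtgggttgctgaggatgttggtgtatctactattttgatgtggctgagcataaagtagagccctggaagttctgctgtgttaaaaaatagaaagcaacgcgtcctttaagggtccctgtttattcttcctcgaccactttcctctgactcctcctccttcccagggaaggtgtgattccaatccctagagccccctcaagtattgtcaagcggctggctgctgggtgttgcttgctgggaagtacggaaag
Prlr start 2, chr15:10223656-10223955, plus strand: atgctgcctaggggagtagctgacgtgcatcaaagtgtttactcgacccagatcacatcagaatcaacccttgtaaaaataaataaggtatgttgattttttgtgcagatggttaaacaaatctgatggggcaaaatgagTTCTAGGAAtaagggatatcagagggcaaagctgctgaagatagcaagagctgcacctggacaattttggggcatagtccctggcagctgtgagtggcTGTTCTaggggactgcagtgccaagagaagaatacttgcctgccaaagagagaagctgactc
Prlr start 3, chr15:10293401-10293700, plus strand: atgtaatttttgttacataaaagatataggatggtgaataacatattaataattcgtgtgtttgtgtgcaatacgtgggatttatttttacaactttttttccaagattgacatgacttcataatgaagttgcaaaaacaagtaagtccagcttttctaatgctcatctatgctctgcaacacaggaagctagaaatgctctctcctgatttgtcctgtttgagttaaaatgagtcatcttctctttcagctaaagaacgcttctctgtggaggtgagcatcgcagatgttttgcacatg
Pgr start, chr9:8899583-8899882, plus strand: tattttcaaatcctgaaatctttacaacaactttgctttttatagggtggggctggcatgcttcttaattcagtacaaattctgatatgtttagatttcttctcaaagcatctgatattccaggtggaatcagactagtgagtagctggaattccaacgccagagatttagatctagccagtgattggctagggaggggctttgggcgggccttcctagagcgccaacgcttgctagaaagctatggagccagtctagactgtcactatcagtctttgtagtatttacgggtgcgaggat

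The second Prlr window holds 1 TTCNNNGAA match at position -110 from the start and 1 AGAACA match, on the minus strand, at position -12. The other Prlr windows and the Pgr window hold 0 matches to these letters. Of 32851 promoter windows of the same length, 8.30% hold TTCNNNGAA, 19.0% hold AGAACA and 40.5% hold GGTCA. The first Esr1 window of 2 holds 1 GGTCA and the second holds 1 TTCNNNGAA, and the 2 Ghr windows hold 0 of the 3 motifs. RefSeq windows were matched for 4 of the 7 genes, Prlr, Esr1, Pgr and Ghr. A match is a description of letters, and the counts bear on no factor. The Prlr probe lies at chromosome 15, 10319297 to 10319334 (GRCm38.p6), 142059, 95391 and 25646 bases of genome downstream of the 3 starts. Its counts therefore cannot be assigned to one of them. All 7 probes lie inside the span of their gene on that build, and exon and UTR annotation was not used here.

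Pgr encodes the progesterone receptor and is itself a textbook target of the oestrogen receptor. Its probe lies at chromosome 9, 8900485 to 8900519, 652 bases downstream of the start shown above. Its levels in Pdpn-adjacent regions 2, 3, 4, 7, 8 and 11 were 0.952, 0.375, 1.50, 1.46, 2.30 and 0.889 times background. In SMA-adjacent regions 1, 5, 6, 9 and 10 they were 1.15, 0.864, 1.21, 1.18 and 0.812 times. No region lay above the floor, and region 8, the highest, rests on 18 counts. Pgr had a mean of 40.0 ± 16.3 CPM (SD, n = 6) beside Pdpn and of 32.3 ± 5.83 CPM (SD, n = 5) beside SMA structures, with a log2 ratio of 0.58 (SE 0.17, edgeR, adjusted p = 0.385) and an exact permutation p of 0.673. In the 8 deeper regions it was 46.6 to 59.8 CPM in Pdpn-adjacent and 23.7 to 38.7 CPM in SMA-adjacent regions, again without overlap (exact permutation p = 0.0179, adjusted p = 0.591 over all probes). Of all probes tested, 2.39% separated with Pdpn-adjacent higher and 2.02% with Pdpn-adjacent lower. The Pgr values of regions 7 and 8 rest on 10 and 18 counts. Without regions 4 and 8 the log2 ratio was 0.18 (SE 0.38, edgeR, adjusted p = 0.997). Shared mice can make these p-values too small.

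Esr1 encodes oestrogen receptor alpha, and its probe lies at chromosome 10, 4746723 to 4746758. It was 0.952, 1.50, 1.63, 1.31, 1.92 and 0.889 times background in Pdpn-adjacent regions 2, 3, 4, 7, 8 and 11. Beside SMA structures (regions 1, 5, 6, 9 and 10) it was 1.55, 1.08, 1.17, 1.37 and 1.45 times. The groups overlapped, and no region lay above the floor. Between 130 and 195 of the 210 negative probes had a lower count than Esr1 in the 8 deeper regions. Oestrogen receptor transcript was thus not clearly detectable above the negative probes. This includes region 5, which had the largest total count and 120 Esr1 counts. Only 21.6% of the counts of region 5 lay above background, the lowest share of the 8 deeper regions. Esr1 had a mean of 44.5 ± 7.73 CPM (SD, n = 6) beside Pdpn and of 40.6 ± 3.82 CPM (SD, n = 5) beside SMA structures, with a log2 ratio of 0.35 (SE 0.14, edgeR, adjusted p = 0.761, exact permutation p = 0.403). Without region 4 the ratio was 0.21 (SE 0.22). Here too the p-values can be too small, for the reason given above.

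**Figure D3:**
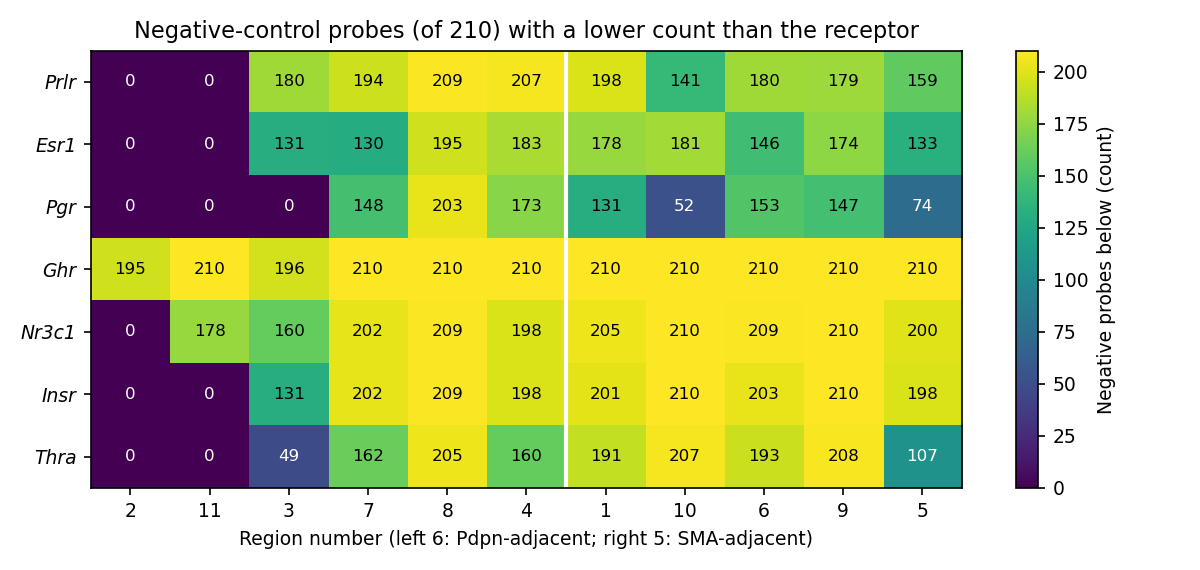
Number of the 210 negative-control probes with a lower count than each receptor (color, printed in each cell), by receptor and region. Ghr exceeds all 210 in 9 of 11 regions, and Esr1 exceeds at most 195.

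Ghr encodes the growth hormone receptor, which drives local production of insulin-like growth factor, and its probe lies at chromosome 15, 3333435 to 3333482. It was the receptor seen above the floor in the most regions, 10 of 11, including all 8 of the deeper ones. In Pdpn-adjacent regions 2, 3, 4, 7, 8 and 11 it was 1.90, 3.00, 6.56, 10.6, 4.09 and 3.56 times background, from counts of 2, 8, 503, 73, 32 and 4. SMA-adjacent regions 1, 5, 6, 9 and 10 had 7.43, 4.40, 6.84, 7.76 and 9.59 times, from counts of 168, 489, 440, 670 and 378. The highest and the lowest region were both Pdpn-adjacent, and region 3, at 8 counts, missed its floor. Of all probes, 7.63% were above the floor in at least 6 of the 8 deeper regions, and 11.0% in at least 5 of 11. By region the share was 10.0%, 2.77%, 9.23%, 5.73%, 10.2% and 22.4% in Pdpn-adjacent regions 2, 3, 4, 7, 8 and 11. It was 12.2%, 8.79%, 12.5%, 19.1% and 19.2% in SMA-adjacent regions 1, 5, 6, 9 and 10.

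Ghr did not differ between the groups past the threshold. It averaged 162 ± 99.9 CPM (SD, n = 6) in Pdpn-adjacent and 220 ± 46.2 CPM (SD, n = 5) in SMA-adjacent regions (log2 ratio -0.28, SE 0.35, edgeR, adjusted p = 1.00, exact permutation p = 0.141). Without regions 2, 3 and 11 the log2 ratio was -0.01 (SE 0.34), and without regions 3 and 7 it was -0.51 (SE 0.35). Leaving out 1 region at a time gave -0.62 (without region 7) to -0.13 (without region 8). The deeper Pdpn-adjacent regions averaged 221 ± 117 CPM (SD, n = 3). Adipocyte markers moved with Ghr. Their summed level over 15 genes was 20.0 to 734 times background in Pdpn-adjacent and 259 to 787 in SMA-adjacent regions. The 20.0 is the value of the shallow region 2, and the deeper Pdpn-adjacent regions 4, 7 and 8 had 433, 734 and 395. Of the 15 genes, 12 to 14 were above the floor in each of the 8 deeper regions. Over these 8 regions the Pearson r between log2 Ghr and the log2 mean of the list was 0.85, a description in which all values share their library and its background. The part of fat cells in Ghr was not tested. Fewer cells of a type and less RNA per cell cannot be told apart in such areas.

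Nr3c1 encodes the glucocorticoid receptor. In Pdpn-adjacent regions 2, 3, 4, 7, 8 and 11 it was 0.952, 1.88, 2.13, 2.62, 3.19 and 1.78 times background. Beside SMA structures (regions 1, 5, 6, 9 and 10) it was 3.05, 2.31, 3.33, 4.67 and 4.90 times, above the floor in 5 of 5 regions. It was above the floor in 2 of 6 Pdpn-adjacent regions, 8 and 11, and that of region 11 rests on 2 counts. Nr3c1 had a mean of 67.5 ± 17.0 CPM (SD, n = 6) beside Pdpn and of 112 ± 28.5 CPM (SD, n = 5) beside SMA structures, and 4 of 6 Pdpn-adjacent regions lay below every SMA-adjacent one.

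With edgeR the log2 ratio of Nr3c1 was -0.60 (SE 0.23, adjusted p = 0.694), and the exact permutation p was 0.0130 (adjusted p = 0.609 over all probes). An exact permutation p under 0.05 was found for 7.91% of all probes tested. In the 8 deeper regions the groups overlapped, at 70.1 to 83.8 against 79.0 to 143 CPM (exact permutation p = 0.125). Fibroblast markers moved with Nr3c1, with a summed level of 14.3 to 143 times background over 15 genes in Pdpn-adjacent and 81.0 to 245 in SMA-adjacent regions. As a mean per gene this was 0.952 to 9.55 and 5.40 to 16.3 times background. The low end beside Pdpn is that of the shallow region 2, and regions 4, 7 and 8 had summed levels of 79.2, 129 and 143. Over the 8 deeper regions the Pearson r of Nr3c1 with that list was 0.91, and with smooth muscle and pericyte markers 0.88, both as descriptions. The same fibroblast list had an r of 0.84 with Insr and 0.87 with Thra. This was not particular to fibroblast markers. Nr3c1 had 0.90 with basal epithelial and 0.80 with blood endothelial markers. Blood and lymphatic endothelial markers had 0.77 and 0.74 with Insr, and 0.82 and 0.77 with Thra. Hormone-sensing luminal markers had -0.36, -0.04 and 0.15 with Nr3c1, Insr and Thra. The part of any of these cell types in the 3 receptors was not tested. Because regions share mice, the p-values can be too small.

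Insr encodes the insulin receptor, and its probe lies at chromosome 8, 3258833 to 3258872. It was 0.952, 1.50, 1.97, 2.62, 3.32 and 0.889 times background in Pdpn-adjacent regions 2, 3, 4, 7, 8 and 11, and only region 8 lay above the floor. SMA-adjacent regions 1, 5, 6, 9 and 10 had 2.39, 2.14, 2.36, 3.22 and 3.60 times, and regions 6, 9 and 10 lay above it. Insr had a mean of 59.4 ± 22.7 CPM (SD, n = 6) beside Pdpn and of 84.2 ± 15.3 CPM (SD, n = 5) beside SMA structures, with a log2 ratio of -0.27 (SE 0.20, edgeR, adjusted p = 0.952, exact permutation p = 0.0801). Among the 8 deeper regions the 3 Pdpn-adjacent ones, at 65.0 to 86.4 CPM, lay within or below the SMA-adjacent range of 71.2 to 105 CPM.

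Thra encodes thyroid hormone receptor alpha, and its probe lies at chromosome 11, 98760878 to 98760927. In Pdpn-adjacent regions 2, 3, 4, 7, 8 and 11 it was 0.952, 0.750, 1.32, 1.60, 2.56 and 0.889 times background. Beside SMA structures, in regions 1, 5, 6, 9 and 10, it was 1.77, 0.981, 1.74, 2.28 and 2.61 times. Only SMA-adjacent regions 9 and 10 lay above the floor, and region 5 was at background. Region 5 had the largest total count but, at 21.6%, the lowest share of counts above background of the 8 deeper regions. Thra had a mean of 42.9 ± 14.6 CPM (SD, n = 6) beside Pdpn and of 57.2 ± 16.3 CPM (SD, n = 5) beside SMA structures, with a log2 ratio of -0.26 (SE 0.23, edgeR, adjusted p = 0.985, exact permutation p = 0.165). Leaving out 1 region at a time gave -0.44 (without region 5) to -0.10 (without region 4). On background-subtracted values of the 8 deeper regions the direction turned, to 0.49 (SE 1.56, limma adjusted p = 1.00). P-values for Insr and Thra can be too small for the same reason as above.

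**Figure D4:**
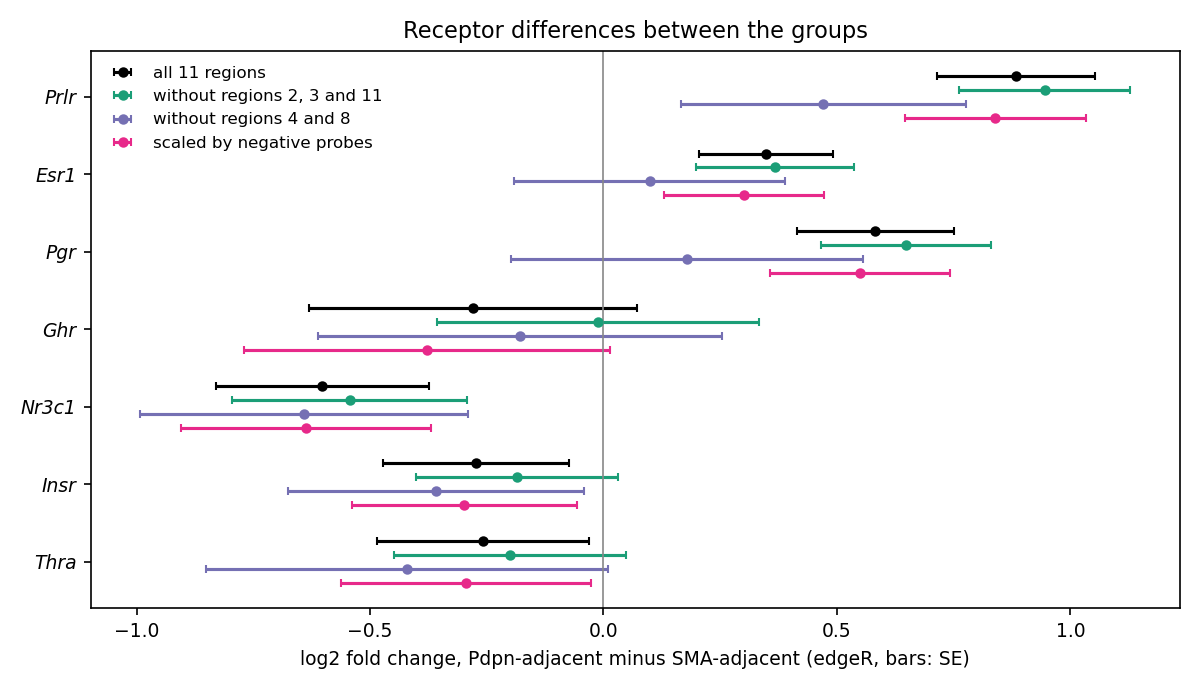
Log2 ratio of each receptor, Pdpn-adjacent minus SMA-adjacent, with its SE (edgeR), in all 11 regions and in 3 alternatives. Prlr, Esr1 and Pgr lie above 0, at 0.88, 0.35 and 0.58 in all regions, and the values of all 3 are smaller without regions 4 and 8.

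Taken over the group, 0 of the 7 receptors passed the adjusted threshold with edgeR, where 0.0100% of all probes did (2 of 19935, both higher). Limma-voom called 0 of 7, and DESeq2 called 0 of the 3 for which it gave an adjusted p. At an unadjusted p under 0.05, edgeR gave 3 of 7 higher in Pdpn-adjacent regions (Prlr, Pgr and Esr1), against 2.84% of all probes. It gave 1 of 7 lower (Nr3c1), against 3.19%. Of these 4 receptors, 1 was left under that p without region 4 (Prlr), and 0 without regions 4 and 8. The genes were proposed with earlier results of these data known, so this share is no independent evidence. The median log2 ratio of the 7 was -0.26, and that of all probes tested was 0.01. On CPM, 0 of the 7 separated the groups in all 11 regions, where 0.446% of probes did so with Pdpn-adjacent higher and 0.391% with Pdpn-adjacent lower.

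The receptors fell into unlike patterns over the 8 deeper regions, given here as Pearson r of log2 level over background, without a test. Prlr and Pgr had an r of 0.90 and Prlr and Esr1 of 0.79. Insr and Thra had 0.90, Nr3c1 and Insr 0.85, and Nr3c1 and Thra 0.83. Prlr and Nr3c1 had -0.47. Ghr had an r between -0.32 and 0.37 with the other 6. All values share their library and its negative-probe mean, and regions 4 and 8 weigh on the values that include Prlr.

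The 3 probes most like each receptor were sought among 3008 probes above the floor in at least 3 of the 8 deeper regions. Picking the highest of 3008 values of r over 8 regions raises them, so they are descriptions only. For Ghr the 3 probes included Car3, a carbonic anhydrase abundant in fat (r = 0.98), and Car5b, a mitochondrial carbonic anhydrase (0.98). Car3 is also 1 of the 15 adipocyte markers, so its r is not separate evidence. For Nr3c1 the 3 probes were Tns1, the adhesion protein tensin (r = 0.99), Kif1c, a kinesin motor (0.98), and Rusc2 (0.98). For Insr they were Tm4sf1, a membrane protein of endothelium (r = 0.99), Hspg2, the basement membrane proteoglycan perlecan (0.98), and Mcl1, a survival factor (0.98). For Thra they were Jund, a subunit of AP-1 (r = 0.996), Rmnd5a (0.99) and Canx, the chaperone calnexin (0.985). For Prlr they were St6galnac2, a sialyltransferase (r = 0.93), Ssh3, a cofilin phosphatase (0.92), and Zdhhc3, a palmitoyltransferase (0.89). St6galnac2 ranged only from 2.25 to 2.74 times background. Esr1 and Pgr, above the floor in 0 regions, were not compared.

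Relatives of the nuclear receptors showed 0 of 23 genes past the threshold with edgeR, and 1 higher and 1 lower at an unadjusted p under 0.05, as a share 8.70% against 6.03% of all probes. Their median log2 ratio was -0.08. Nr2f2, the receptor COUP-TFII of veins and stroma, averaged 44.1 ± 15.2 CPM (SD, n = 6) in Pdpn-adjacent and 91.5 ± 32.9 CPM (SD, n = 5) in SMA-adjacent regions (log2 ratio -0.87, SE 0.27, edgeR, adjusted p = 0.476). Nr2f2 was above the floor in only 3 regions. In the shallow regions 2, 3 and 11 it stood at 0.952, 0.750 and 0.889 times background. Esr2, oestrogen receptor beta, was above the floor in 0 regions and reached at most 2.04 times background (log2 ratio 0.45, SE 0.16, edgeR, adjusted p = 0.657). Among 18 coregulators and chaperones of these receptors, 0 passed, 0 were higher and 1 was lower at an unadjusted p, with a median of -0.07, so that 5.56% stood beside the 6.03% of all probes. The 2 of smallest p were Gper1, a membrane oestrogen receptor at 0.291 to 1.15 times background, and Crebbp, a histone acetyltransferase (log2 ratio -0.40, SE 0.20, edgeR, adjusted p = 0.854). Gper1, the 1 lower gene, had a log2 ratio of -0.61 (SE 0.22, edgeR, adjusted p = 0.657) but was above the floor in 0 regions. Its mean was 22.8 ± 12.5 CPM (SD, n = 6) beside Pdpn and 23.0 ± 2.71 CPM (SD, n = 5) beside SMA structures (exact permutation p = 0.641).

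Genes downstream of the receptors also gave no call. Of 20 oestrogen and progesterone responsive genes 0 passed with edgeR, 2 were higher at an unadjusted p under 0.05 and 0 lower, with a median log2 ratio of 0.09. Over all probes, 2.84% were higher and 3.19% lower by the same rule. Areg, the growth factor amphiregulin, had 0.61 (SE 0.18, edgeR, adjusted p = 0.430) and Greb1, an oestrogen-induced gene, 0.50 (SE 0.21, adjusted p = 0.761), and neither was above the floor in any region. Of 19 genes of prolactin and growth hormone signalling 0 passed, and 0 had an unadjusted p under 0.05 (median -0.04). Erbb4, a receptor kinase, had 0.21 (SE 0.16) and Ptpn11, the phosphatase Shp2, -0.26 (SE 0.21, edgeR, adjusted p = 0.963 and 0.979).

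Of 17 glucocorticoid responsive genes 0 passed with edgeR, 2 were higher and 3 lower at an unadjusted p, a share of 29.4% against 6.03% of all probes, with a median of -0.20. Lcn2, the secreted protein lipocalin, had a log2 ratio of 0.78 (SE 0.20, edgeR, adjusted p = 0.205) but was above the floor in 0 regions. Dusp1, a phosphatase of kinases, had a mean of 33.8 ± 5.21 CPM (SD, n = 6) beside Pdpn and of 50.2 ± 13.1 CPM (SD, n = 5) beside SMA structures, with -0.58 (SE 0.20, edgeR, adjusted p = 0.644, exact permutation p = 0.00649). Dusp1 was above the floor in only 2 regions. In the shallow regions 2, 3 and 11 it stood at 0.952, 0.750 and 0.889 times background. Of 20 insulin signalling genes 0 passed, 0 were higher and 1 was lower at an unadjusted p (5.00% against 6.03% of all probes, median -0.06). The 2 of smallest p were Grb14, an inhibitor of the insulin receptor (-0.56, SE 0.21, edgeR, adjusted p = 0.694), and Ptpn1, a phosphatase of the receptor (0.25, SE 0.15, adjusted p = 0.921). Grb14 was above the floor in 0 regions, and its mean CPM ran against the ratio, at 26.2 ± 10.3 (SD, n = 6) beside Pdpn and 23.7 ± 4.79 (SD, n = 5) beside SMA structures (exact permutation p = 0.812).

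Of 19 genes of thyroid hormone transport and response 0 passed with edgeR, 1 was higher and 1 lower at an unadjusted p (10.5% against 6.03% of all probes, median -0.10). Klf9, a factor induced by thyroid hormone and glucocorticoid, had a mean of 52.3 ± 15.5 CPM (SD, n = 6) beside Pdpn and of 84.3 ± 22.1 CPM (SD, n = 5) beside SMA structures, with a log2 ratio of -0.54 (SE 0.22) and, in edgeR, an adjusted p of 0.761. Klf9 was above the floor in only 4 regions. Atp2a1, the calcium pump of fast muscle, was 0.808 to 69.0 times background in Pdpn-adjacent and 1.23 to 14.0 in SMA-adjacent regions (log2 ratio 1.78, SE 0.80, edgeR, adjusted p = 0.778). It is also a marker of skeletal muscle, whose 13 markers had a summed level of 13.5 to 888 times background in Pdpn-adjacent and 14.1 to 123 in SMA-adjacent regions. The part of muscle in Atp2a1 was not tested. With regions that share a mouse, p-values for all 7 lists can be too small.

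**Figure D5:**
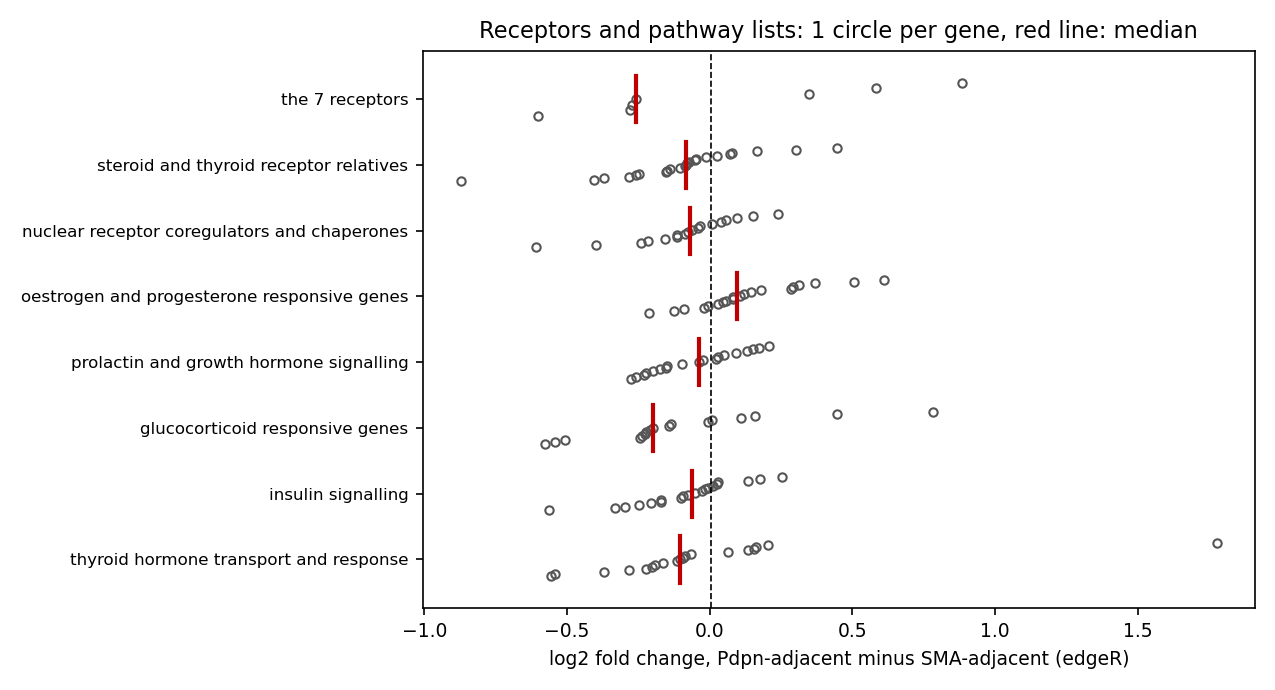
Log2 ratio, Pdpn-adjacent minus SMA-adjacent (edgeR), of each receptor and of each gene of the 7 pathway lists, with a red line at each median and a dashed line at the median of all probes. The list medians lie between -0.20 and 0.09, and the circle farthest right is Atp2a1 at 1.78.

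The remaining marker lists were measured in the same regions. A summed level equal to the number of genes is background, so the Pdpn-adjacent low ends given here stand at about background. Each of them is the value of the shallow region 2 or 3, so these ranges also reflect depth. In the deeper Pdpn-adjacent regions 4, 7 and 8, blood endothelial markers summed to 20.1, 23.6 and 41.0 times background. Smooth muscle and pericyte markers summed to 23.2, 50.5 and 40.8 there. The summed level of 12 secretory luminal markers, among them Trf and Mfge8, was 12.4 to 36.0 times background in Pdpn-adjacent and 16.9 to 25.8 in SMA-adjacent regions. For 10 basal epithelial markers, led by Acta2 and Tagln, it was 10.9 to 32.5 against 32.1 to 163, and for 12 smooth muscle and pericyte markers 13.3 to 50.5 against 45.8 to 223. The lists share 4 genes, Acta2, Tagln, Myh11 and Cnn1, all with negative ratios. The basal keratins Krt5 and Krt14 had log2 ratios of 0.89 and 0.47 (edgeR adjusted p = 0.517 and 0.961). Krt5 was 0.375 to 1.53 times background in Pdpn-adjacent and 0.203 to 0.394 in SMA-adjacent regions. Krt14 was 0.375 to 16.9 and 0.857 to 0.981 times in the same order. The 16.9 is the value of the shallow region 11 alone, and the mean of Krt14 over all regions was 2.39. Of the 10 basal markers 5 had positive ratios, and the median of the list was -0.03. For 11 blood endothelial markers, led by Eng and Cdh5, the summed level was 10.5 to 41.0 against 21.4 to 47.7. For 12 macrophage markers, led by Csf1r and C1qb, it was 12.4 to 32.3 against 21.4 to 34.5, and for 9 lymphatic markers, led by Reln and Ccl21a, 7.50 to 14.8 against 11.9 to 14.5. As means per gene, the macrophage list had 1.03 to 2.69 against 1.79 to 2.88 times background. The lymphatic list had 0.834 to 1.65 against 1.33 to 1.61. Csn3, a milk casein of the secretory list, was 1 of the 2 probes called in all and is named after its value was seen (log2 ratio 0.98, SE 0.17, edgeR, adjusted p = 0.0413). Its level over background ran from 0.952 up to 2.63 beside Pdpn-stained vessels, and from 0.938 up to 1.19 beside SMA structures. The mean over all regions was 1.48, where 1 is background, so the call is for a probe of low level.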

How the data were processed

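The deposited table gives raw counts per probe and region for 11 regions, without normalization. The steps from reads to counts are not given in the sources used here. The file headers name GRCm38.p6 for the deposited probe coordinates. The table holds 19965 endogenous and 210 negative-control probes, and no count of 0. Library sizes and tests used endogenous probes alone. Probes kept by filterByExpr (19935) were tested with the quasi-likelihood test of edgeR 4.0.16 (R 4.3.3), with TMM scaling, two-sided, Benjamini-Hochberg adjustment over all probes and a threshold of 0.05. A positive log2 ratio means higher beside Pdpn. Exact two-sided permutation tests compared mean log2 CPM (prior count 2) over 462 ways to choose the groups, whose smallest p is 0.00216, and were adjusted over all probes. Deeper regions weigh more in edgeR and equally in the permutation test.

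Alternatives were DESeq2 1.42.0, limma-voom (limma 3.58.1), no filter, upper-quartile or negative-probe scaling, background subtraction in the 8 regions of at least 100000 counts (limma on log2 of CPM plus 1), and leaving out regions. The members, the 7 pathway and 10 marker lists and the alternatives were chosen with earlier results of these data known. Named genes are the 7 receptors, the 2 of smallest edgeR p in each pathway list, the 2 of highest mean level in each marker list (named without values where no result turns on them) and the 3 probes most like each receptor. One result of the last kind is not reported here. The symbol Ly6a of the luminal list was not matched. Promoter windows came from RefSeq on GRCm38.p6.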

Additional observations from a re-analysis of the deposited data

How the results depend on the processing

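The number of probes called between the groups was 2 with all regions. It was 2 without a filter on low counts, 1 with upper-quartile scaling, 1 with negative-probe scaling, 1 without regions 2, 3 and 11, 13 without regions 4 and 8, 14 without regions 3 and 7, 17 with DESeq2 and 0 with limma-voom or after background subtraction. Leaving out 1 region at a time gave 1 to 53 calls, with 53 without SMA-adjacent region 5 and 13 without Pdpn-adjacent region 7. Prlr ran from 0.66 to 0.96 (log2 fold change) over these 11 fits and passed in 3 of them. It also passed without regions 3 and 7 (0.96, edgeR adjusted p = 0.0473), and over the settings that gave one its adjusted p ran from 0.0473 to 0.996, leave-one-out fits aside. After background subtraction Thra turned to 0.49 (SE 1.56). In that setting Prlr was 2.14 (SE 0.69), Pgr 3.65 (SE 1.19) and Esr1 1.63 (SE 1.27), and 0 of the 7 receptors passed. Values below the negative-probe mean became 0 there, as for Pgr in SMA-adjacent regions 5 and 10 (0.864 and 0.812 times background). The size of such ratios therefore depends on the added 1 and is not a fold difference in transcript. Without regions 4 and 8 the difference in mean log2 CPM turned to -0.0031 for Esr1 and to -0.10 for Pgr. The cause was not tested. The other receptors kept their direction and stayed short of the edgeR threshold in all settings. DESeq2 gave no adjusted p for Prlr, Esr1, Pgr and Thra. No paired analysis was possible because no region number occurs in both groups and regions are not tied to mice. Depth limits regions 2, 3 and 11, where 1 count is worth 37.5, 12.3 and 34.3 CPM.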

Other observations

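Placed among all 19965 endogenous probes, which differ in how well they bind, Ghr had a higher count than 96.2% to 99.5% of them in the 8 regions of at least 100000 counts. Nr3c1 stood above 87.5% to 97.1%, and Insr above 84.2% to 94.6%. Prlr stood above 37.2% of probes in SMA-adjacent region 10 and above 92.3% in Pdpn-adjacent region 8, with a higher place in region 4. Pgr, the progesterone receptor gene, spanned 9.90% to 77.6%, and its lowest place was also in SMA-adjacent region 10. That region had the highest share of counts above background of all 11, at 41.6%, and Pdpn-adjacent region 8, where Pgr stood highest, had 41.4%.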
